A study of Homo sapiens with 9 samples.

Results

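The collagen, laminin and integrin genes of MDA-MB-231 cells were followed across control and ZIP7 knockdown. Members were the protein-coding genes whose GENCODE symbol is COL, a number, A and a number, or LAMA, LAMB, LAMC, ITGA or ITGB with a number, together with ITGAV. Of the 58395 gene identifiers counted, 76 met this rule, namely 44 collagen chains, 12 laminin chains, 12 integrin alpha subunits and 8 integrin beta subunits. At least 10 counts in 3 or more libraries were found for 54 of them, which were 26 collagens, 11 laminins, 9 integrin alpha and 8 integrin beta genes. All 54 entered the test across 16761 genes.

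MDA-MB-231 is a human triple-negative breast cancer line with mesenchymal features. ZIP7, encoded by SLC39A7, is a transporter that moves zinc out of the endoplasmic reticulum. The cells were transfected with a nontargeting siRNA (siNC) or with 1 of 2 siRNAs against ZIP7 (siZIP7_1 and siZIP7_2), and RNA was taken 96 h later. With 3 libraries each, the 9 libraries asked how the transcriptome responds to ZIP7 loss. All groups carried a transfected siRNA in the same line and medium. The labels do not say that the 3 libraries of a group came from separate cultures, so p-values measure only the spread between these libraries, which may be technical.

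Collagens are triple helices of 3 alpha chains that are folded and hydroxylated in the endoplasmic reticulum before export. They build fibrils (type I, III, V), basement membrane networks (type IV), beaded filaments (type VI) or anchoring fibrils (type VII). Laminins are cross-shaped trimers of an alpha, a beta and a gamma chain that seed basement membranes. Integrins are membrane receptors of 1 alpha and 1 beta subunit. The alpha subunit largely sets whether the pair binds collagen, laminin or the RGD motif of fibronectin and related proteins.

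The libraries held 24153785 to 30454419 counts on genes. CPM below means a count scaled by library size and TMM factor. SLC39A7 fell from 321, 343 and 322 CPM under siNC to 35.4, 32.9 and 38.6 CPM under siZIP7_1, and under siZIP7_2 it read 20.5, 19.5 and 17.6 CPM. Libraries of a group differed by a chi-square of 2.49 to 6.54 per gene, above sampling noise, so none was counted as a duplicate. In siNC the 5 mesenchymal markers of the line (VIM, CD44, AXL, CAV1, MSN) stood at 484 to 5529 CPM, PGR was at 0 counts, ESR1 and CDH1 were under 1 CPM, and EPCAM (6.57 CPM) and ERBB2 (74.2 CPM) were present. VIM fell with both siRNAs (log2 -1.04 and -0.93, adjusted p = 3.19e-17 and 3.28e-16), and the epithelial CDH1 rose from 0.466 to 4.18 and 0.998 CPM (adjusted p = 1.57e-13 and 0.00143). The other markers did not all follow. CD44 fell with siZIP7_1 and rose with siZIP7_2 (log2 -0.81 and 1.14). Of the 5 mesenchymal markers, 1 rose and 4 fell with siZIP7_1, and 2 rose and 3 fell with siZIP7_2. Of the 4 low markers tested, 4 rose with siZIP7_1, and 2 rose and 2 fell with siZIP7_2. Reads on no annotated gene made up 7.43% to 8.28% in siNC, 7.80% to 9.62% with siZIP7_1 and 9.99% to 11.5% with siZIP7_2. The summed level of 6 fibroblast markers was 24.4 to 26.4, 33.6 to 35.3 and 43.3 to 49.1 CPM in the same order. DCN was at no more than 2 counts in any library, but of the 3 fibroblast markers tested 2 rose with siZIP7_1 and 3 with siZIP7_2. The sum of 3 leukocyte markers was 1.68 to 2.87, 1.31 to 1.60 and 9.08 to 12.2 CPM. CD3E was at no more than 1 count, and of the 2 tested 1 rose and 1 fell with siZIP7_1 and 1 rose with siZIP7_2. The sum of 3 endothelial markers was 3.18 to 3.67, 0.309 to 0.510 and 9.54 to 10.96 CPM. Of these 3, 1 rose and 1 fell with siZIP7_1, and 2 rose with siZIP7_2. Of all genes tested, 34.8% rose and 35.9% fell with siZIP7_1, and 38.5% rose and 39.3% fell with siZIP7_2. The part of these shifts in the results was not tested.

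The 22 genes of the rule below the count minimum were 18 collagens, 3 integrin alpha genes and LAMC3. COL1A2, the partner chain of COL1A1 in type I collagen, reached at most 7 counts in any library, and COL6A5 and COL6A6 had no count. ITGA4 reached at most 4 counts, ITGA8 and ITGA9 at most 11. Of the 54 genes reported, COL11A1, COL20A1, COL3A1, ITGB6 and ITGB7 reached 10 counts in no siNC library. These 5 thus passed the minimum only through knockdown libraries and had to be higher in those. For COL3A1, ITGB6 and ITGB7 these were siZIP7_2 libraries only. The counts over all members and over the fibrillar collagens are therefore also given without the 5 genes, a choice made after seeing the data.

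RefSeq promoter entries were found for 41 of the 54 genes. The bases upstream of the start are shown for the 4 collagen-binding integrin alpha genes, because all 4 were called in the same directions. They are also shown for COL6A2 and COL7A1, a type VI chain and the anchoring fibril collagen, which are described with them. Each run is up to 150 bases on the coding strand, 5′ to 3′, from build GRCh38.p14, upstream of the RefSeq start and outside the GENCODE exons of the gene. Capitals mark 5 motifs on either strand, which are CCAAT (the CCAAT box), TATAAA (the TATA box), GGGCGG (the GC box), TGANTCA (the AP-1 site) and GGAATG (a TEAD site). The runs lie at chr5:52787746-52787895 (ITGA1, plus strand), chr5:52989176-52989325 (ITGA2, plus), chr1:145910190-145910300 (ITGA10, minus), chr15:68432164-68432313 (ITGA11, minus), chr21:46097947-46098096 (COL6A2, plus) and chr3:48595330-48595479 (COL7A1, minus).
ITGA1: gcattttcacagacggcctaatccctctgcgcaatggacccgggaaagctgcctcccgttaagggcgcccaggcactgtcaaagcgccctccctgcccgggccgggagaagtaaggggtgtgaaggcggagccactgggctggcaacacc
ITGA2: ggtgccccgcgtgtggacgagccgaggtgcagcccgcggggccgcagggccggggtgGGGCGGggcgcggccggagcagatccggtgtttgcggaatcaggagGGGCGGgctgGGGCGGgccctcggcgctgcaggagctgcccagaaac
ITGA10: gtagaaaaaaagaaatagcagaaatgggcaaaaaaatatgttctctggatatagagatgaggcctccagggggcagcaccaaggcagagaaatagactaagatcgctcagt
ITGA11: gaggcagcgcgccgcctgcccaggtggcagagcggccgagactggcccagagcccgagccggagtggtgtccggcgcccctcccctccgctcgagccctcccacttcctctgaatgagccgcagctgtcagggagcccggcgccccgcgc
COL6A2: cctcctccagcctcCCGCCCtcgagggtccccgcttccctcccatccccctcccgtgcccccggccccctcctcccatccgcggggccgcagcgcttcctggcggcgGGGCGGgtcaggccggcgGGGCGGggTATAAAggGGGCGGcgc
COL7A1: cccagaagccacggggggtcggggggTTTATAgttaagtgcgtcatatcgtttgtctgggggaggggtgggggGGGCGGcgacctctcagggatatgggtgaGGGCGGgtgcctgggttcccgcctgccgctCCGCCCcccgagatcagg

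The motifs were counted in the 250 bases before each RefSeq start, on both strands. GGGCGG was in 24 of the 41 promoters (58.5%) and in 42.6% of all 35095 promoters. CCAAT was in 9 of 41 (22.0%, all promoters 32.0%), TATAAA in 5 (12.2%, all 10.7%), GGAATG in 5 (12.2%, all 11.9%) and TGANTCA in 1 (2.44%, all 6.57%). TGANTCA reads the same on both strands, and the motifs can overlap each other by a few letters. In the runs printed, ITGA2 was the 1 collagen-binding integrin gene with a motif, the GC box. ITGA10 held CCAAT and GGAATG within its 250 bases, but not in its printed run, which begins 140 bases upstream of the RefSeq start. A match is a description of the letters only, and the GENCODE and RefSeq starts of the 6 genes shown differ by 1 to 139 bases.

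With siZIP7_1, 45 of the 54 genes passed the threshold (edgeR's quasi-likelihood test, Benjamini-Hochberg adjusted p under 0.05 over all genes), against 70.7% of all genes tested. Of these, 29 fell (35.9% of all genes fell) and 16 rose (34.8% of all genes rose). In bulk RNA, fewer expressing cells and less RNA per cell cannot be told apart. With siZIP7_2, 50 of the 54 passed (77.8% of all genes), of which 34 rose (38.5% of all genes) and 16 fell (39.3%). Without the 5 genes that no siNC library carried at 10 counts, 49 remained, of which 28 fell and 15 rose with siZIP7_1 and 16 fell and 29 rose with siZIP7_2. The median log2 fold change of the 54 genes was -0.51 with siZIP7_1 and 0.58 with siZIP7_2, beside -0.0069 and -0.0018 over all genes tested. The medians of the 54 include the 5 genes and were not computed without them. Both comparisons use the same siNC libraries, so the direct comparison of the siRNAs was also made. It called 51 of the 54 (78.7% of all genes), with 37 genes higher (38.1%) and 14 lower (40.6%) with siZIP7_2 than with siZIP7_1, and without the 5 genes 33 were higher and 14 lower of 49.

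With so many genes called, the size of the change was also tested, by edgeR's glmTreat against a change of 1.8-fold. By this test 25 of the 54 genes passed with siZIP7_1 (16.9% of all genes), of which 18 fell (8.32% of all) and 7 rose (8.6%). With siZIP7_2, 22 passed (24.7% of all genes), of which 19 rose (14%) and 3 fell (10.7%). Between the siRNAs 34 passed (28.2%), with 27 higher (15.2%) and 7 lower (13%) under siZIP7_2. Without the 5 genes the 49 others held 6 rises and 18 falls with siZIP7_1, 14 rises and 3 falls with siZIP7_2, and 23 higher and 7 lower genes in the direct comparison. COL7A1, COL16A1, COL17A1, ITGA2 and ITGA10 were lower with siZIP7_1 and higher with siZIP7_2 by this stricter test, and COL8A1 was higher with siZIP7_1 and lower with siZIP7_2.

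**Figure D1:**
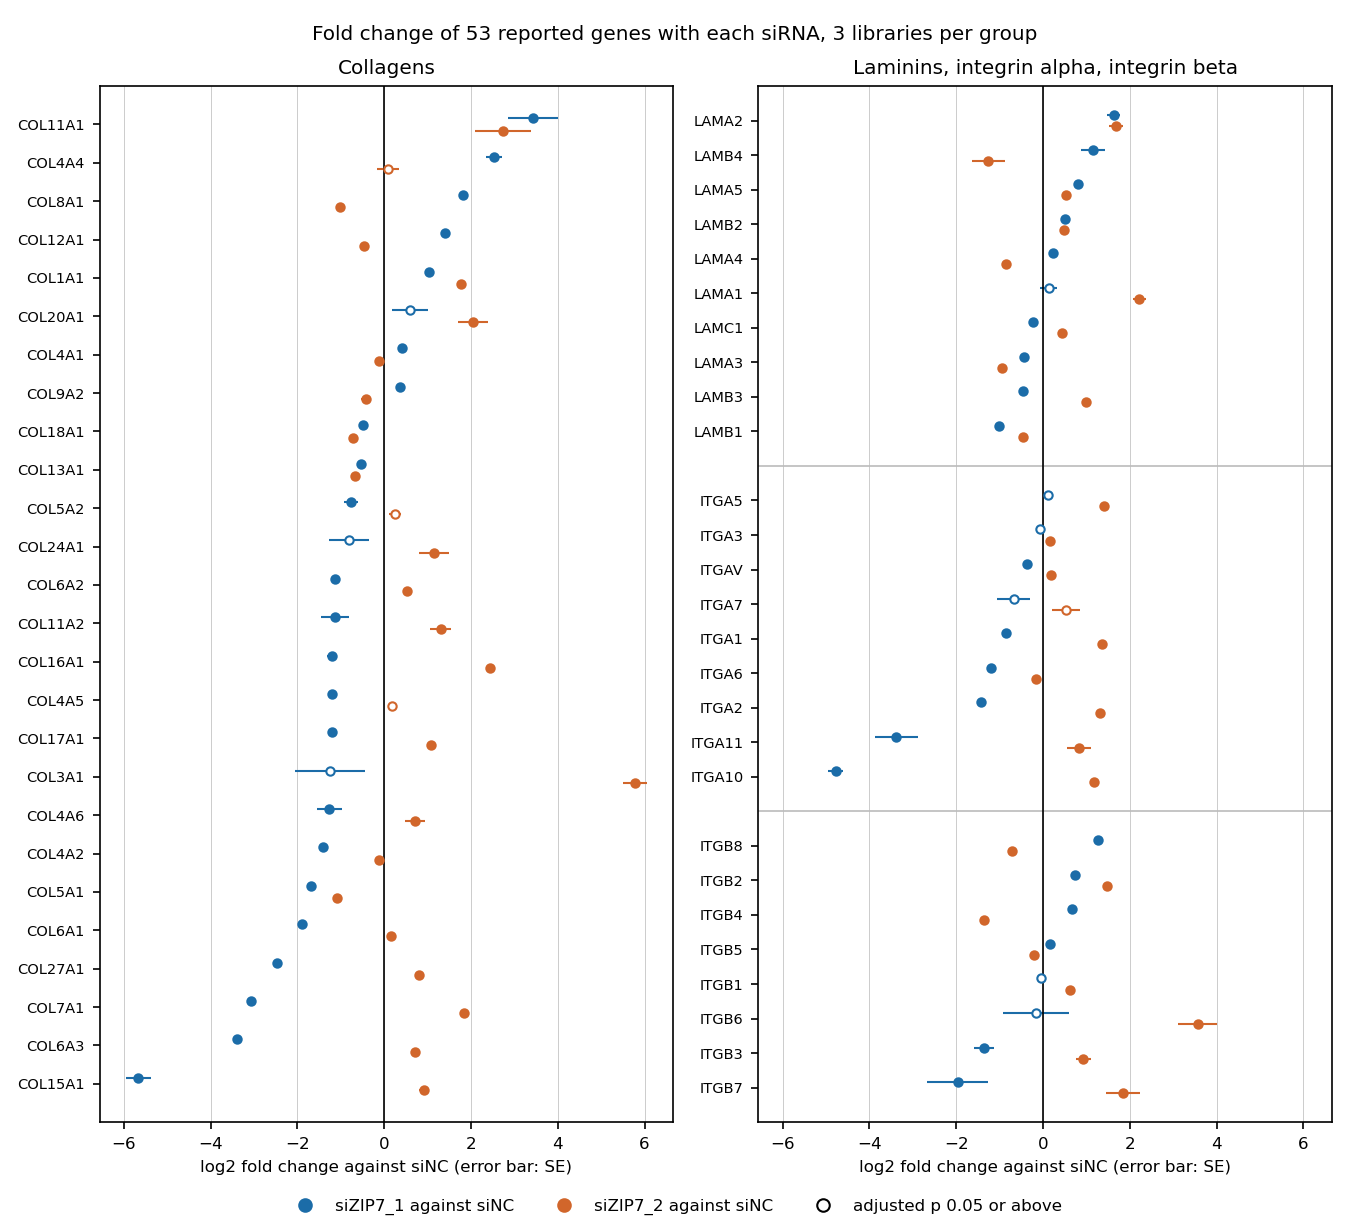
Log2 fold change against siNC of 53 of the reported genes with siZIP7_1 (blue) and siZIP7_2 (orange), with standard errors as bars and 3 libraries per group; open circles did not pass an adjusted p of 0.05. Most blue points lie left of 0 and most orange points right of it. Points of genes with few counts (COL3A1, COL11A1, COL15A1, ITGA11, ITGB6, ITGB7) depend on the model's prior count. Bars are approximate, derived from the F statistic of each test.

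Levels between genes are compared per kb of exon. The length used is that of all annotated exons of a gene, not of the transcripts expressed. In siNC the highest was LAMB3, a chain of the laminin of hemidesmosomes, at 252 CPM per kb, ahead of ITGA3 at 156, ITGB1 at 129.9, ITGA2 at 73.4 and COL13A1 at 71.3 CPM per kb. ITGA3 and ITGB1 code for the subunits of a main laminin receptor of epithelial cells. The median gene was at 2.34 CPM per kb among collagens, 14.9 among laminins, 17.6 among integrin alpha and 3.18 among integrin beta genes. In siZIP7_1 these medians were 0.873, 7.41, 13.7 and 5.83 CPM per kb, and with siZIP7_2 they were 4.66, 10.8, 19.9 and 1.84. The collagen medians include COL3A1, COL11A1 and COL20A1, and the integrin beta medians ITGB6 and ITGB7. These genes passed the count minimum only through knockdown libraries and were bound to be low in siNC. Medians without them were not computed. The leading collagen was COL13A1 in siNC, COL8A1 ahead of COL13A1 with siZIP7_1 (70.9 and 49.04 CPM per kb), and COL13A1 ahead of COL7A1 with siZIP7_2 (45.01 and 36.1).

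Summed over a class, integrin alpha genes held 3122 ± 37.8 CPM (SD, n = 3) in siNC, against 2376 ± 56.2 CPM with siZIP7_1 and 4811 ± 202 CPM with the other siRNA. Laminins held 2679 ± 41.4, 2732 ± 115 and 4428 ± 182 CPM, and integrin beta genes 1038 ± 20.4, 1110.4 ± 40.6 and 1470.4 ± 43.8 CPM. The collagen sum stayed between 2133 and 2384 CPM in all 9 libraries while single collagens moved by large factors in both directions. These sums are descriptions without a test, and a few abundant genes make up most of each.

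**Figure D2:**
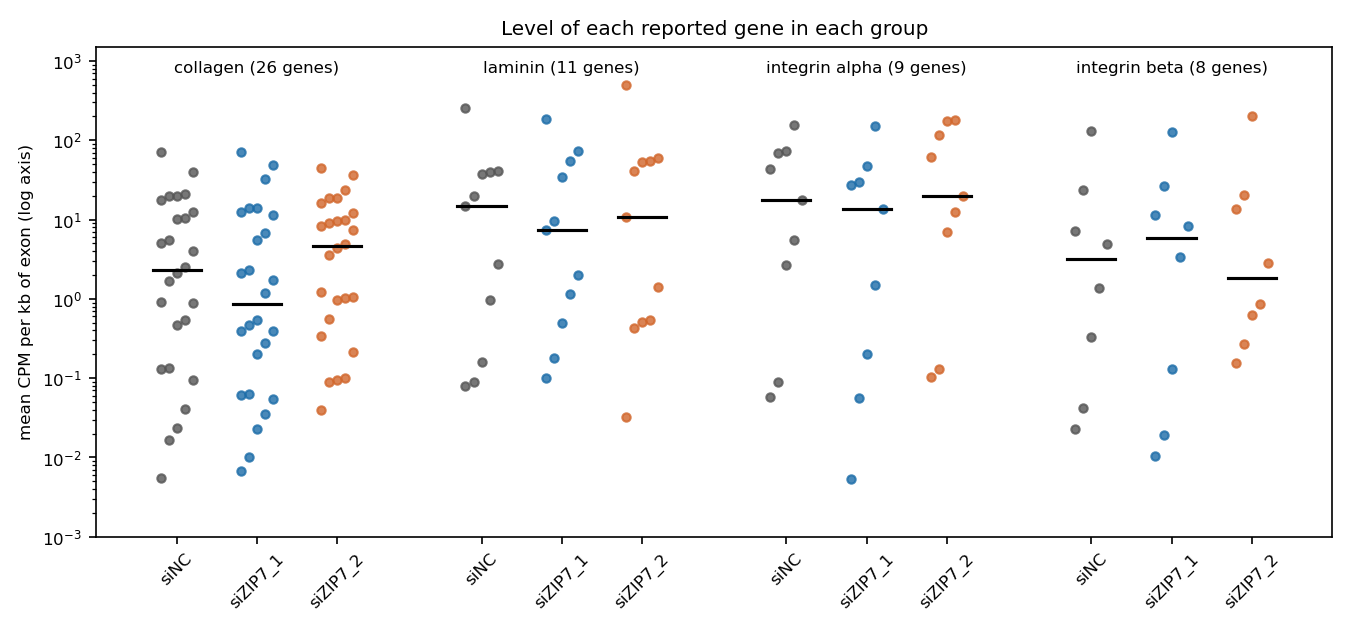
Mean level of each reported gene in CPM per kb of exon (log axis) in each group, by class, with 1 point per gene and a black line at the class median. The collagen median is lowest with siZIP7_1 (0.873) and highest with siZIP7_2 (4.66), and the spread within each class covers more than 3 powers of 10. The collagens include COL3A1, COL11A1 and COL20A1, which passed the count minimum only through knockdown libraries and were bound to be low in siNC.

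The 4 receptor genes for collagen were called in the same directions, by steps of unlike size. ITGA1, ITGA2, ITGA10 and ITGA11 each pair with ITGB1 to form a collagen receptor, and all 4 fell with siZIP7_1 and rose with siZIP7_2. Of all genes tested, 9.33% were called in these 2 directions. By glmTreat against 1.8-fold, ITGA1 did not pass with siZIP7_1 (adjusted p = 0.882), nor ITGA11 with siZIP7_2 (adjusted p = 0.739). ITGA2 (chr5:52989326-53094779, plus strand), the chief collagen receptor subunit of epithelial cells and platelets, stood at 578, 555 and 607 CPM in siNC, 218, 219 and 207 with siZIP7_1 and 1441, 1393 and 1501 with siZIP7_2. No 2 groups overlapped. Its level was 2.70-fold lower with siZIP7_1 (log2 -1.43 ± 0.05, SE, adjusted p = 1.53e-20) and 2.49-fold higher with siZIP7_2 (log2 1.32 ± 0.05, adjusted p = 7e-20). The direct difference between the siRNAs was 6.73-fold (adjusted p = 4.16e-27).

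ITGA1 (chr5:52787896-52959210, plus), whose product favours type IV collagen, lies 30116 bases upstream of ITGA2 in the same orientation. Its values were 54.4, 39.2 and 56.8 CPM in siNC, 27.4, 28.03 and 28.3 with siZIP7_1 and 134, 127 and 129 with siZIP7_2. The siNC replicate 2 library was the lowest of its group, yet above all siZIP7_1 libraries. The log2 fold changes were -0.85 ± 0.08 and 1.37 ± 0.08 (adjusted p = 2.61e-10 and 7.5e-16). Other genes, among them PELO on the same strand, share 6.39% of its exon bases.

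ITGA10 (chr1:145891208-145910189, minus), best known from cartilage, had the largest fold change of the integrins with siZIP7_1. It stood at 38.99, 25.6 and 39.1 CPM in siNC, 1.17, 1.37 and 1.25 with siZIP7_1 and 90.5, 74.9 and 70.7 with siZIP7_2, so that it was close to 0 in one knockdown and above control in the other. Again siNC replicate 2 was below its fellows. It was 27.4-fold lower with siZIP7_1 (adjusted p = 2.32e-20) and 2.26-fold higher with siZIP7_2 (adjusted p = 5.84e-12). ITGA11 (chr15:68296533-68432162, minus), a receptor for fibrillar collagen known from fibroblasts, was sparse, with 14, 16 and 20 counts in siNC, 3, 1 and 1 with siZIP7_1 and 34, 34 and 25 with siZIP7_2. The ratio of summed counts was 11.2-fold lower with siZIP7_1 (95% exact interval 4.50 to 36.0, counting error only). The fitted log2 value, -3.39 (adjusted p = 6.12e-07), was -4.10 without siZIP7_1 replicate 1. Its rise with siZIP7_2 (log2 0.83 ± 0.27, adjusted p = 0.00647) missed the threshold in DESeq2 (adjusted p = 0.0721).

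**Figure D3:**
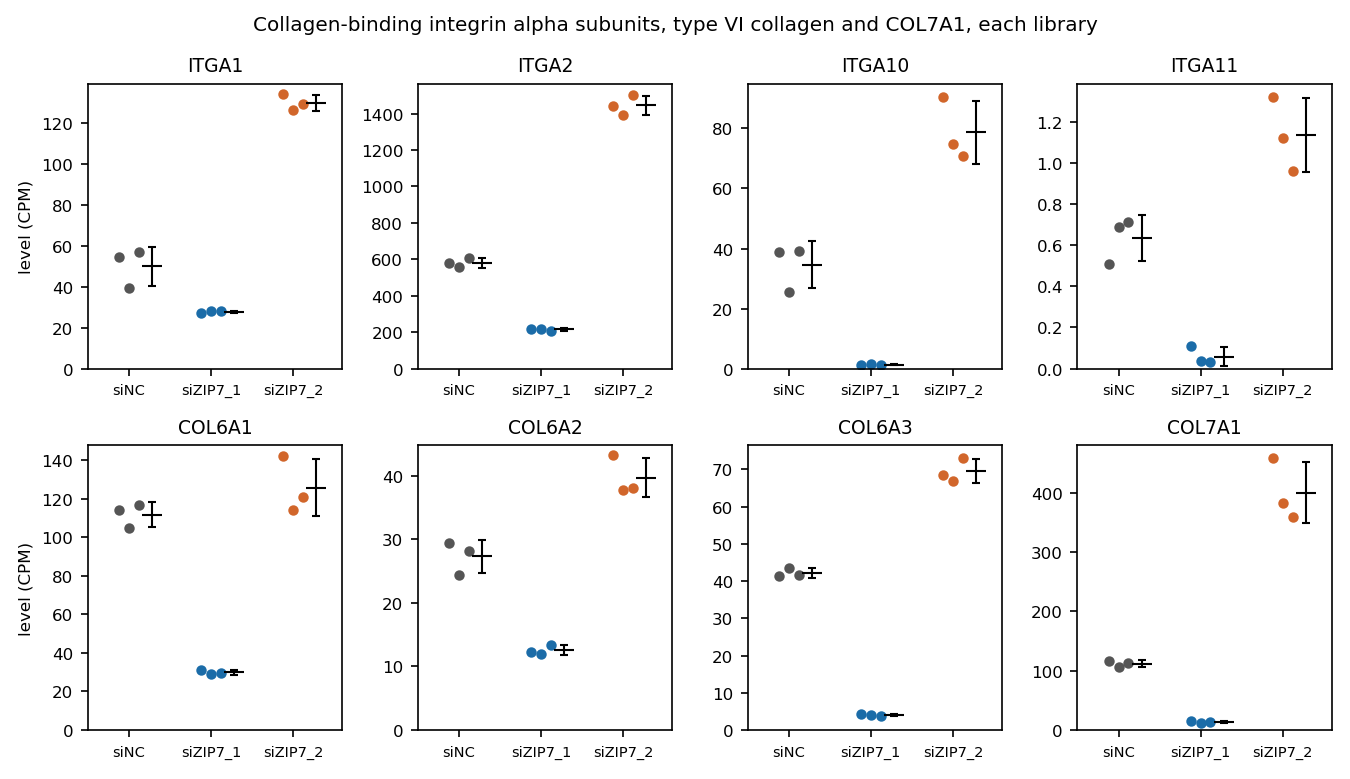
Level in CPM of the 4 collagen-binding integrin alpha genes, the 3 type VI collagen chains and COL7A1 in each of the 9 libraries; coloured points are libraries, black bars the group mean with its SD, and each vertical axis starts at 0. In all 8 panels the siZIP7_1 libraries lie below siNC, and the siZIP7_2 libraries lie above it except for COL6A1, where they overlap siNC.

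The laminin-binding alpha subunits behaved otherwise. ITGA3 (chr17:50055968-50090481, plus) had the highest level per kb of the integrin genes in siNC, with 1556, 1539.8 and 1504 CPM in siNC, 1513, 1433 and 1463 with siZIP7_1 and 1779, 1592 and 1759 with siZIP7_2. The siNC and siZIP7_1 values overlapped (log2 -0.06 ± 0.05, adjusted p = 0.273), and the siZIP7_2 values were all higher by a small step (log2 0.16 ± 0.05, adjusted p = 0.00540). ITGA6 (chr2:172427354-172506282, plus), which pairs with ITGB1 or ITGB4, fell 2.31-fold with siZIP7_1, from 425, 449 and 465 CPM to 193, 215 and 172 CPM (adjusted p = 6.51e-17). With siZIP7_2 it stood at 376, 409 and 404 CPM (log2 -0.17 ± 0.06, adjusted p = 0.00978). That last call was lost without siNC replicate 3 (adjusted p = 0.0736), without siZIP7_2 replicate 1 (0.0798), with upper-quartile normalization (0.274) and with a minimum of 10 counts in every library (0.134). ITGA7, a laminin receptor of muscle, was the 1 gene of the 54 past the threshold with neither siRNA, at log2 -0.67 ± 0.38 and 0.53 ± 0.32 (adjusted p = 0.111 and 0.135). It passed with siZIP7_1 when siNC replicate 2 was left out (log2 -1.01, adjusted p = 0.0127) and with siZIP7_2 when siNC replicate 1 was left out (0.84, 0.0441).

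The RGD-binding subunits were ITGA5 and ITGAV. ITGA5 (chr12:54395261-54419460, minus), the alpha subunit of the classical fibronectin receptor, stood at 336, 331.8 and 327 CPM in siNC, 366, 359 and 343 with siZIP7_1 and 932, 823 and 897 with siZIP7_2. It rose 2.67-fold with siZIP7_2 (adjusted p = 2.03e-20), while the value with siZIP7_1 was log2 0.10 ± 0.05 (adjusted p = 0.0614). All siZIP7_1 values lay above siNC, and the call was made in 6 alternatives, such as a fit of only the 2 groups compared (adjusted p = 0.0238). ITGAV, whose product joins several beta subunits, fell from 144 ± 12.3 to 112 ± 4.29 CPM with siZIP7_1 (log2 -0.36 ± 0.05, adjusted p = 1.02e-06). With siZIP7_2 it was at 164 ± 7.18 CPM, a range that overlapped siNC (log2 0.18 ± 0.05, adjusted p = 0.00323, and 0.0621 without siNC replicate 1). The 9 integrin alpha genes were all higher with siZIP7_2 than with siZIP7_1, and all 9 passed that direct test, in which 78.7% of all genes passed and 38.1% were higher.

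Among beta subunits, ITGB1 (chr10:32900319-33005792, minus), the shared partner of the collagen-binding, laminin-binding and fibronectin-binding alpha chains, held 787, 768 and 788 CPM in siNC, 746, 799 and 717 with siZIP7_1 and 1199, 1178 and 1252 with siZIP7_2. The first 2 groups overlapped (log2 -0.05 ± 0.05, adjusted p = 0.352). With siZIP7_2 the level was 1.55-fold higher (adjusted p = 1.29e-12). The beta subunit thus did not pass with siZIP7_1 while its 4 collagen-binding alpha partners each fell.

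ITGB4 (chr17:75721328-75757818, plus), the hemidesmosome subunit that pairs only with ITGA6, had 52.4, 40.3 and 53.9 CPM in siNC, 81.1, 77.2 and 76.6 with siZIP7_1 and 20.2, 18.9 and 18.1 with siZIP7_2. It rose 1.60-fold with siZIP7_1 (adjusted p = 8.68e-10) and fell 2.57-fold with siZIP7_2 (adjusted p = 1.95e-15), and siNC replicate 2 was the lowest of its group. ITGB8 and ITGB5, partners of ITGAV, moved the same way. ITGB8, which helps to activate latent TGF-beta, went from 20.98 ± 2.24 CPM to 50.4 ± 2.42 with siZIP7_1 and 12.9 ± 0.587 with siZIP7_2 (log2 1.26 ± 0.07 and -0.70 ± 0.08, adjusted p = 5.05e-16 and 3.1e-09). ITGB5, a vitronectin receptor subunit, moved by small steps around 152 ± 2.34 CPM (log2 0.17 ± 0.04 and -0.22 ± 0.04, adjusted p = 0.00134 and 7.66e-05).

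ITGB2, the beta subunit of leukocyte integrins, rose with both siRNAs, from 34.1, 35.5 and 31.8 CPM to 56.6, 55.5 and 57.9 and 89.2, 93.8 and 97.2 CPM (log2 0.75 ± 0.06 and 1.47 ± 0.05, adjusted p = 6.95e-13 and 6.29e-20). Of the leukocyte markers, CD3E was at 0 counts in both knockdown groups. PTPRC stood at 0.402 ± 0.0508, 0.875 ± 0.126 and 0.327 ± 0.0482 CPM (log2 1.10 and -0.30, adjusted p = 0.00155 and 0.460), and CD14 at 1.81 ± 0.557, 0.544 ± 0.0349 and 10.01 ± 1.69 CPM (log2 -1.75 and 2.44, adjusted p = 1.18e-06 and 2.81e-14). Their part in the ITGB2 values was not tested. Of 6 integrin alpha genes with lettered names, which include the usual partners of ITGB2, only 2 were expressed enough to be tested, and 1 fell with siZIP7_2.

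The 3 remaining beta genes were sparse and are uncertain, since other genes share many of their exon bases. ITGB3, the vitronectin receptor subunit, had 1.45 ± 0.105, 0.566 ± 0.108 and 2.79 ± 0.221 CPM (log2 -1.36 ± 0.24 and 0.93 ± 0.18, adjusted p = 1e-05 and 2.91e-05), with 51.6% of its exon bases shared with a same-strand gene. ITGB6, an epithelial receptor that activates TGF-beta, went from 1, 5 and 2 counts in siNC to 43, 31 and 28 with siZIP7_2 (log2 3.56 ± 0.44, adjusted p = 2.52e-08; 4.42 without siNC replicate 2), with 20.6% shared. ITGB7 had 7, 4 and 4 counts in siNC, 1, 3 and 0 with siZIP7_1 and 19, 22 and 16 with siZIP7_2, with 42.1% shared with the antisense gene ZNF740. Its ratio of summed counts was 4.203-fold lower with siZIP7_1 (95% exact interval 1.34 to 17.4). The fitted value, log2 -1.97 (adjusted p = 0.0153), was -3.19 without siZIP7_1 replicate 2 and lost its call in DESeq2 (adjusted p = 0.0546), without siNC replicate 1 (0.0760) and without siZIP7_1 replicate 3 (log2 -1.37, 0.0984). Its rise with siZIP7_2 passed (log2 1.84 ± 0.40, adjusted p = 0.000144). ITGB6 and ITGB7 passed the count minimum only through siZIP7_2 libraries, so their values are no independent support for a rise there.

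Of the ligands, the 3 expressed chains of type VI collagen all fell with siZIP7_1, as did 35.9% of all genes. This collagen forms beaded filaments around cells, and its chains COL6A1, COL6A2 and COL6A3 assemble in 1 molecule. COL6A3 (chr2:237324003-237414375, minus) stood at 41.2, 43.6 and 41.7 CPM in siNC, 4.19, 4.12 and 3.70 with siZIP7_1 and 68.4, 66.98 and 73.1 with siZIP7_2. It was 10.5-fold lower with siZIP7_1 (adjusted p = 7.26e-25) and 1.65-fold higher with siZIP7_2 (adjusted p = 9.92e-13), and no groups overlapped. COL6A1 (chr21:45981737-46005050, plus) had 114, 105 and 116, 31.2, 28.9 and 29.7 and 142, 114 and 121 CPM in the same order. It fell 3.74-fold with siZIP7_1 (adjusted p = 2.1e-20), whereas the siZIP7_2 libraries overlapped siNC. Its call with siZIP7_2 (log2 0.17 ± 0.06, adjusted p = 0.0136) was lost without siNC replicate 2 (0.108), without siZIP7_2 replicate 1 (0.199) and without a low-count filter (0.0609). COL6A2 (chr21:46098097-46132849, plus), whose promoter run is shown above, had 29.5, 24.4 and 28.1, 12.3, 11.99 and 13.4 and 43.2, 37.7 and 38.03 CPM (log2 -1.12 ± 0.08 and 0.53 ± 0.07, adjusted p = 2.09e-13 and 9.09e-08). It lies 93047 bases from COL6A1 in the same orientation.

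COL7A1 (chr3:48564073-48595267, minus) codes for the collagen of anchoring fibrils, which tie the epidermal basement membrane to the dermis. It stood at 117, 106 and 112 CPM in siNC, 14.9, 11.5 and 13.4 with siZIP7_1 and 458, 383 and 359 with siZIP7_2. The 3 groups were far apart, with a level 8.44-fold lower with siZIP7_1 (adjusted p = 5.13e-23) and 3.57-fold higher with siZIP7_2 (adjusted p = 8.06e-20). The direct difference between the siRNAs was 30.2-fold (adjusted p = 5.72e-28). COL17A1, the transmembrane collagen of hemidesmosomes, went from 28.9, 27.3 and 28.7 CPM to 12.3, 12.3 and 12.05 with siZIP7_1 and 62.5, 56.03 and 59.9 with siZIP7_2 (log2 -1.21 ± 0.07 and 1.07 ± 0.06, adjusted p = 8.19e-16 and 4.28e-16). COL13A1, a transmembrane collagen known from the neuromuscular junction, fell with both, from 419.8 ± 2.10 to 289 ± 5.21 and 265 ± 6.28 CPM (log2 -0.54 ± 0.04 and -0.66 ± 0.04, adjusted p = 5.37e-12 and 4.49e-14).

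The 8 reported fibrillar collagens went several ways, with 4 lower and 2 higher with siZIP7_1 and 1 lower and 6 higher with siZIP7_2. Without COL3A1 and COL11A1, which reached 10 counts in no siNC library, these were 4 lower and 1 higher, and 1 lower and 4 higher, of 6. Of all genes, 35.9% fell and 34.8% rose with siZIP7_1, and 39.3% fell and 38.5% rose with siZIP7_2. COL1A1, the main chain of type I collagen, rose with both siRNAs, from 57.3, 51.99 and 53.7 CPM to 115, 108 and 113 with siZIP7_1 and 194, 172 and 188 with siZIP7_2 (log2 1.04 ± 0.05 and 1.77 ± 0.05, adjusted p = 1.86e-16 and 6.6e-22). Its partner chain COL1A2 stayed below the count minimum in all groups. COL5A1, which sets the diameter of type I fibrils, led the fibrillar chains per kb in siNC and fell with both, from 461, 419 and 446 CPM to 143, 135 and 135 and 220.2, 205 and 201 CPM (log2 -1.68 ± 0.05 and -1.08 ± 0.05, adjusted p = 4.9e-22 and 8.07e-18). COL5A2, the other expressed chain of type V collagen, was scarce at 3.52 ± 0.0732 CPM in siNC and fell with siZIP7_1 (log2 -0.77 ± 0.16, adjusted p = 0.000116), while its value with siZIP7_2 was log2 0.25 ± 0.15 (adjusted p = 0.120).

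COL3A1, the type III chain of soft tissues, had 5, 2 and 2 counts in siNC, 2, 1 and 1 with siZIP7_1 and 197, 162 and 172 with siZIP7_2. It was thus at the edge of detection in 2 groups and at 6.53 ± 1.16 CPM in the third (log2 5.78 ± 0.28 against siNC, adjusted p = 3.01e-17). COL27A1, a fibrillar collagen of cartilage, had 35.98, 36.2 and 34.1 CPM in siNC, 6.85, 6.63 and 5.90 with siZIP7_1 and 69.2, 57.5 and 59.7 with siZIP7_2 (log2 -2.46 ± 0.08 and 0.81 ± 0.06, adjusted p = 7.03e-21 and 2.9e-12). COL11A1 rose from 4 summed counts in siNC to 52 with siZIP7_1 and 30 with siZIP7_2, a ratio of 11.6 (95% exact interval 4.27 to 44.2) and 7.20 (2.54 to 28.1). The fitted log2 values, 3.42 and 2.74 (adjusted p = 5.83e-06 and 0.000379), were 4.62 and 3.94 without siNC replicate 3 and the latter was 2.16 without siNC replicate 1. COL11A1 passed the count minimum only through knockdown libraries, so these values are no independent support for a rise. COL11A2 fell with siZIP7_1 and rose with siZIP7_2 around 0.915 ± 0.180 CPM (log2 -1.13 ± 0.33 and 1.30 ± 0.24, adjusted p = 0.00295 and 1.52e-05), and COL24A1 rose with siZIP7_2 (log2 1.15 ± 0.34, adjusted p = 0.00345).

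Type IV collagen, the scaffold of basement membranes, showed an uneven change of 2 chains that share a molecule and a promoter region. COL4A1 (chr13:110148963-110307233, minus) and COL4A2 (chr13:110305812-110513209, plus) are transcribed away from each other and pair in a helix of mostly 2 COL4A1 chains and 1 COL4A2 chain. COL4A1 stood at 157, 149 and 162 CPM in siNC, 212, 211 and 204 with siZIP7_1 and 141, 139 and 148 with siZIP7_2. COL4A2 stood at 343, 342 and 344, 131, 127 and 129 and 316, 304 and 325 CPM. With siZIP7_1, COL4A1 rose (log2 0.42 ± 0.05, adjusted p = 3.36e-09) and COL4A2 fell (log2 -1.41 ± 0.05, adjusted p = 2.95e-21). The ratio of COL4A1 to COL4A2 per kb of exon went from 0.595 ± 0.0226 (SD, n = 3) in siNC to 2.12 ± 0.0590 with siZIP7_1 and was 0.592 ± 0.00591 with siZIP7_2. With siZIP7_2 both chains passed by a narrow margin (log2 -0.13 ± 0.05 and -0.12 ± 0.04, adjusted p = 0.0138 and 0.0144). Neither of these 2 calls held with DESeq2's size factors (adjusted p = 0.0679 and 0.0795), without siZIP7_2 replicate 2 (0.0811 and 0.0945), with upper-quartile normalization (0.641 and 0.764) or with 10 counts in every library (0.264 and 0.317), and that of COL4A1 was also lost without siNC replicate 3 (0.101).

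The other type IV chains are scarcer. COL4A5 and COL4A6, another divergent pair 347 bases apart on the X chromosome, both fell with siZIP7_1 (log2 -1.20 ± 0.10 and -1.27 ± 0.29, adjusted p = 6.81e-12 and 0.000315), from 10.8 ± 0.666 and 1.20 ± 0.243 CPM. COL4A6 rose with siZIP7_2 (log2 0.71 ± 0.23, adjusted p = 0.00582), though its values overlapped siNC, and COL4A5 was at log2 0.17 ± 0.09 (adjusted p = 0.0701, and 0.00603 to 0.0439 in 5 alternatives). COL4A4, whose divergent neighbour COL4A3 stayed below the count minimum, rose from 1.09, 1.12 and 0.676 CPM to 6.48, 4.91 and 5.11 CPM with siZIP7_1 (log2 2.52 ± 0.19, adjusted p = 6.51e-13). With siZIP7_2 it overlapped siNC at 1.05, 1.12 and 0.846 CPM (adjusted p = 0.772).

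COL8A1 (chr3:99638475-99799226, plus), a short-chain network collagen of vessel walls, moved against most of the group. It stood at 185, 198 and 185 CPM in siNC, 672, 682 and 648 with siZIP7_1 and 100.2, 87.8 and 93.3 with siZIP7_2. It rose 3.53-fold with siZIP7_1 (adjusted p = 8.29e-23), where it led the collagens per kb, and fell 2.02-fold with siZIP7_2 (adjusted p = 1.19e-16). COL12A1 (chr6:75084326-75206051, minus), a collagen that decorates type I fibrils, took the same course, from 156, 161 and 148 CPM to 439, 390.2 and 392 with siZIP7_1 and 102, 116 and 116 with siZIP7_2 (log2 1.40 ± 0.06 and -0.47 ± 0.06, adjusted p = 3.26e-19 and 1.16e-08). COL9A2, of the same fibril-associated class, followed by small steps (log2 0.37 ± 0.10 and -0.43 ± 0.11, adjusted p = 0.00229 and 0.00115).

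COL16A1, also fibril-associated, did the reverse, with 8.82, 7.30 and 8.83 CPM in siNC, 3.10, 3.50 and 4.30 with siZIP7_1 and 48.01, 44.9 and 42.5 with siZIP7_2. This was 2.28-fold lower (adjusted p = 2.61e-10) and 5.40-fold higher (adjusted p = 1.57e-20) than siNC. COL20A1 was sparse and higher with siZIP7_2 (log2 2.04 ± 0.35, adjusted p = 5.17e-06). It passed the count minimum only through knockdown libraries, so this value is no independent support for a rise. The 2 basement membrane multiplexins differed. COL15A1 had 110, 75 and 105 counts in siNC, 2, 2 and 2 with siZIP7_1 and 166, 219 and 187 with siZIP7_2, so that its siZIP7_1 ratio was 54.2-fold lower (95% exact interval 24.6 to 149) and its change with siZIP7_2 log2 0.92 ± 0.12 (adjusted p = 8.41e-08). COL18A1, the source of endostatin, fell with both (log2 -0.49 ± 0.05 and -0.72 ± 0.05, adjusted p = 2.77e-09 and 6.87e-13), with 16.4% of its exon bases shared with the antisense gene SLC19A1.

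Laminins split by chain. LAMA3 and LAMB3 are chains of the laminin of hemidesmosomes. LAMB3 (chr1:209614870-209652466, minus) stood at 1167, 1237 and 1144 CPM in siNC, 870.3, 856 and 846 with siZIP7_1 and 2439, 2194 and 2435 with siZIP7_2. It was 1.38-fold lower with siZIP7_1 (adjusted p = 2.7e-09) and 1.99-fold higher with siZIP7_2 (adjusted p = 1.12e-16). LAMA3 (chr18:23689443-23956222, plus) fell with both, from 40.2, 42.1 and 38.3 CPM to 31.1, 29.2 and 28.5 and 19.9, 22.1 and 20.3 CPM (log2 -0.44 ± 0.06 and -0.95 ± 0.06, adjusted p = 2.35e-07 and 6.75e-14). LAMB3 thus exceeded LAMA3 per kb of exon 92.2-fold in siNC and 356-fold with siZIP7_2, although the chains assemble in equal numbers. These ratios depend on the annotated exon lengths, 4688 bases for LAMB3 and 14678 for LAMA3, which may exceed those of the transcripts expressed.

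LAMA5, LAMB1, LAMB2 and LAMC1 make up the laminins of most adult basement membranes. LAMA5 (chr20:62307955-62367312, minus) rose with both siRNAs, from 614, 577 and 586 CPM to 1125, 947 and 1042 and 882, 856 and 818 CPM (log2 0.81 ± 0.05 and 0.52 ± 0.05, adjusted p = 7.68e-14 and 7.08e-10). LAMB2 (chr3:49121114-49133118, minus) also rose with both, from 261 ± 12.8 to 372 ± 27.02 and 367 ± 18.2 CPM (adjusted p = 1.2e-09 and 2.16e-09), and its 2 knockdown groups overlapped. LAMB1 (chr7:107923799-108003255, minus), the alternative beta chain, fell with both, from 121, 121 and 121 CPM to 61.1, 62.04 and 57.7 and 84.2, 94.7 and 84.1 CPM (log2 -1.01 ± 0.05 and -0.46 ± 0.05, adjusted p = 1.74e-16 and 2.44e-09). LAMC1 (chr1:183023460-183145592, plus), the common gamma chain, had 339.8, 338 and 336, 286, 298 and 286 and 452, 444 and 472 CPM (log2 -0.22 ± 0.04 and 0.43 ± 0.04, adjusted p = 7.33e-05 and 6.66e-10). The ratio of LAMB2 to LAMB1 per kb was 2.56 ± 0.123 in siNC, 7.34 ± 0.710 with siZIP7_1 and 4.99 ± 0.546 with siZIP7_2.

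The scarcer laminin chains each went their own way. LAMA1, the embryonic alpha chain, was at 1.44 ± 0.129 CPM in siNC and rose with siZIP7_2 to 6.72 ± 0.560 CPM (log2 2.22 ± 0.15, adjusted p = 1.1e-13). LAMA2, the muscle alpha chain, rose with both by about the same step (log2 1.63 ± 0.16 and 1.68 ± 0.16, adjusted p = 2.08e-10 and 8.71e-11), from 1.64 ± 0.162 CPM. LAMA4, the vessel alpha chain, fell with siZIP7_2 from 11.4 ± 0.737 to 6.34 ± 0.835 CPM (log2 -0.84 ± 0.10, adjusted p = 8.26e-09). Its call with siZIP7_1 (log2 0.22 ± 0.09, adjusted p = 0.0287) was lost in DESeq2 (0.105), without siNC replicate 1 (0.0702) or 3 (0.0974) and without siZIP7_1 replicate 1 (0.0514) or 3 (0.0766). LAMB4, 20293 bases from LAMB1, rose with siZIP7_1 and fell with siZIP7_2 at about 0.564 ± 0.126 CPM (log2 1.15 ± 0.27 and -1.26 ± 0.38, adjusted p = 0.000376 and 0.00411).

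**Figure D4:**
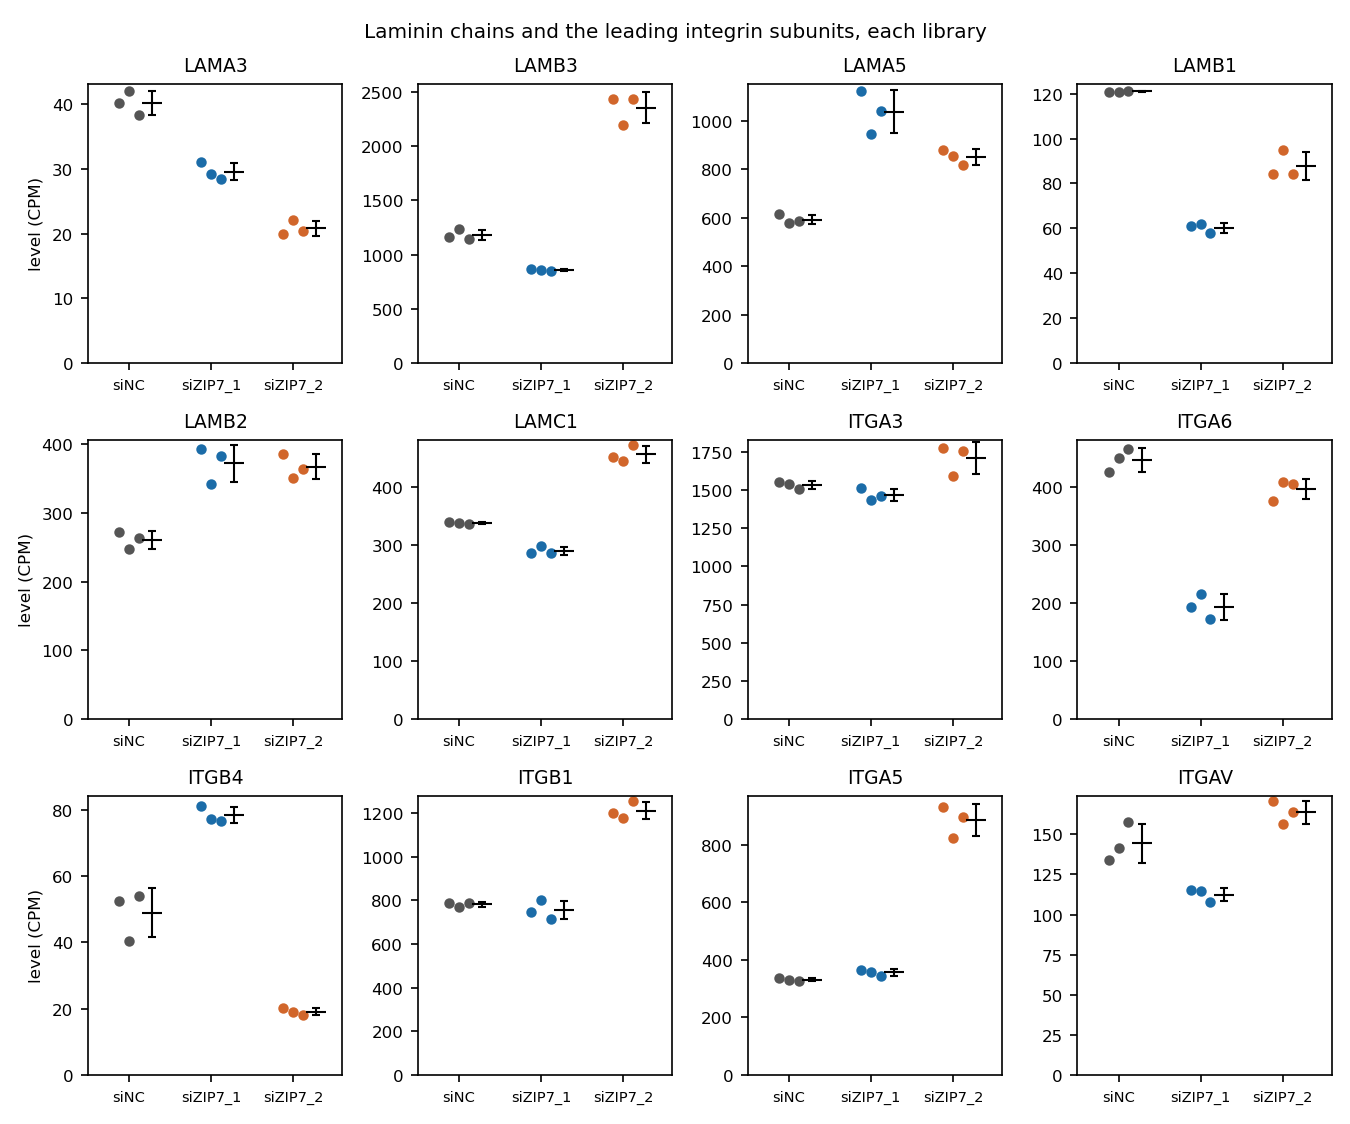
Level in CPM of 6 laminin chains and 6 integrin subunits in each of the 9 libraries; coloured points are libraries, black bars the group mean with its SD, and each vertical axis starts at 0. LAMA3 and LAMB1 are highest in siNC, LAMA5 is lowest there, and ITGA5 and ITGB1 are highest with siZIP7_2.

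Within a library, the ratio of 2 subunits does not depend on its depth. ITGA2 to ITGA3 per kb of exon, a collagen against a laminin receptor, was 0.469 ± 0.0277 in siNC, 0.181 ± 0.00732 with siZIP7_1 and 1.05 ± 0.0409 with siZIP7_2. ITGA2 thus led the integrin alpha genes per kb with siZIP7_2 by a small margin, which rests on the annotated exon lengths (7910 and 9802 bases). In CPM, ITGA3 stayed ahead there, at 1710 against 1445. ITGB4 to ITGA6, the hemidesmosome pair, was 0.106 ± 0.0170, 0.395 ± 0.0434 and 0.0466 ± 0.00456. COL8A1 to COL7A1 was 1.99 ± 0.172, 59.9 ± 8.75 and 0.278 ± 0.0251. COL6A3 to COL6A1 was 0.103 ± 0.00894, 0.0364 ± 0.00242 and 0.152 ± 0.0182. In each of these 4 ratios the 3 groups did not overlap, which is given as a description without a test. COL8A1 and COL7A1 were called in opposite directions with each siRNA, so a shift of their ratio was fixed in advance. The share of all gene pairs with no overlap was not computed, while 78.7% of all single genes passed between the siRNAs.

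**Figure D5:**
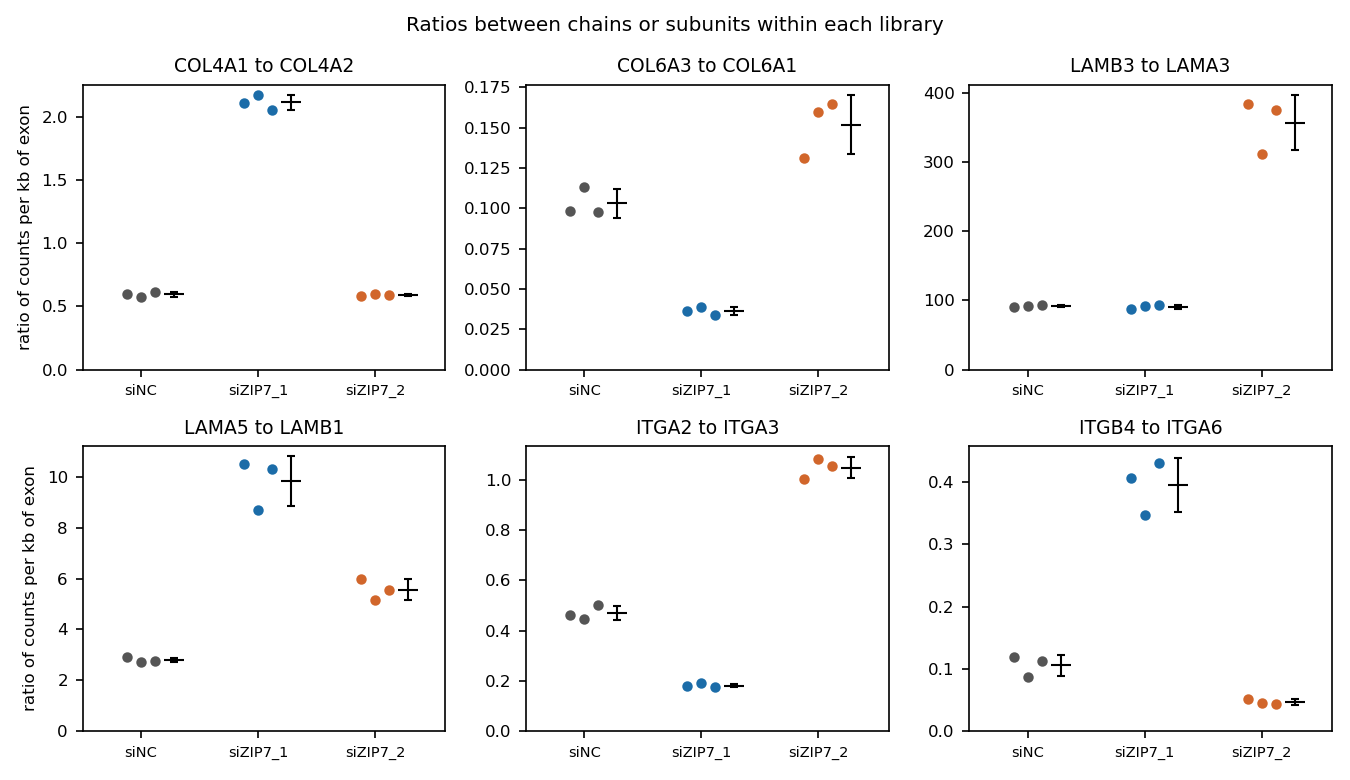
Ratio of counts per kb of exon between 2 genes within each of the 9 libraries, for 6 pairs of chains or subunits; coloured points are libraries and black bars the group mean with its SD. The COL4A1 to COL4A2 ratio stands apart only with siZIP7_1 (2.12) and the LAMB3 to LAMA3 ratio only with siZIP7_2 (356), and the other 4 pairs differ between all 3 groups. Other pairs of genes were not examined for comparison.

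The genes that fold, process or hold these proteins were followed as lists. Their counts stand beside 34.8% of all genes that rose and 35.9% that fell with siZIP7_1, and 38.5% and 39.3% with siZIP7_2. Of 21 genes of collagen modification and folding, 9 rose and 10 fell with siZIP7_1, and 5 rose and 15 fell with siZIP7_2. PLOD2, which hydroxylates lysines for crosslinks, rose with both, from 157 ± 12.3 to 285 ± 17.3 and 476 ± 28.8 CPM (log2 0.86 ± 0.06 and 1.59 ± 0.06, adjusted p = 6.35e-14 and 3.48e-20). CRTAP, part of the prolyl 3-hydroxylation complex, fell with both, from 209 ± 4.53 to 132 ± 5.95 and 86.1 ± 4.81 CPM (adjusted p = 6.94e-13 and 2.22e-19), and so did the scarce P3H3 (log2 -1.20 ± 0.30 and -0.97 ± 0.30, adjusted p = 0.000815 and 0.00425). Of 15 genes of collagen processing and crosslinking, 4 rose and 10 fell with siZIP7_1, and 9 rose and 4 fell with siZIP7_2. LOX, which oxidizes lysines to start crosslinks, rose with both, from 35.8 ± 2.39 to 68.9 ± 7.09 and 95.2 ± 5.27 CPM (adjusted p = 2.07e-13 and 1.17e-17). The procollagen proteases TLL1 and TLL2 were scarce in siNC. TLL1 rose to 6.52 ± 0.806 CPM with siZIP7_1 (log2 4.67 ± 0.24, adjusted p = 1.04e-16; -1.34 ± 0.58 and 0.0367 with siZIP7_2), and TLL2 to 2.59 ± 0.480 CPM with siZIP7_2 (log2 5.01 ± 0.37, adjusted p = 3.81e-13; 1.65 ± 0.60 and 0.0161 with siZIP7_1).

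Of 12 other matrix proteins, 10 were tested, of which 3 rose (all genes 34.8%) and 5 fell (35.9%) with siZIP7_1, and 7 rose (38.5%) and 3 fell (39.3%) with siZIP7_2. TNC, an adhesion-modulating matrix protein, went from 433 ± 5.97 CPM to 17.8 ± 1.94 with siZIP7_1 and 1095 ± 78.7 with siZIP7_2 (log2 -4.61 ± 0.07 and 1.34 ± 0.06, adjusted p = 1.8e-28 and 9.65e-19). THBS1, a matrix protein that binds several receptors, fell with both, from 4680.2 ± 86.1 to 1313 ± 26.9 and 1648 ± 60.01 CPM (adjusted p = 3.59e-23 and 2.91e-21). SPARC, a collagen chaperone of the matrix, was scarce and rose with both (log2 1.69 ± 0.26 and 3.26 ± 0.21, adjusted p = 1.06e-06 and 2.76e-14).

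Of 9 non-integrin receptors, 2 rose (all genes 34.8%) and 5 fell (35.9%) with siZIP7_1, and 5 rose (38.5%) and 4 fell (39.3%) with siZIP7_2. BCAM, a receptor for LAMA5-containing laminins, rose from 40.4 ± 1.56 to 105 ± 3.45 CPM with siZIP7_1 and fell to 26.4 ± 1.57 CPM with siZIP7_2 (adjusted p = 2.15e-19 and 1.5e-10). SDC1, a heparan sulfate co-receptor, fell with both (log2 -0.57 ± 0.06 and -1.12 ± 0.06, adjusted p = 3.62e-10 and 1.36e-16), as did RPSA (log2 -0.87 ± 0.07 and -1.17 ± 0.07, adjusted p = 5.94e-12 and 1.08e-14), whose many processed pseudogenes make its count uncertain. Of 26 integrin adaptors and focal adhesion genes, 25 were tested, with 9 higher (all genes 34.8%) and 12 lower (35.9%) with siZIP7_1, and 8 higher (38.5%) and 15 lower (39.3%) with siZIP7_2. VCL, which links integrins to actin, fell from 544 ± 15.5 to 325 ± 3.08 and 269 ± 6.13 CPM (adjusted p = 6.24e-15 and 3.76e-18). FERMT1, an integrin activator of epithelia, fell with both (log2 -2.03 ± 0.10 and -0.47 ± 0.09, adjusted p = 3.45e-17 and 1.52e-05), and LIMS2, an adaptor of the integrin-linked kinase, rose with both (log2 1.01 ± 0.08 and 1.25 ± 0.08, adjusted p = 3.44e-12 and 1.86e-14).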

How the data were processed

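Total RNA from the 9 MDA-MB-231 samples was sequenced by the authors as single reads on an Illumina HiSeq. Per the labels, the submitters' processing notes name Trim Galore 0.4.1, FastQC 0.11.2, STAR, HTSeq 0.6.1 and DESeq2 1.16.1. The genome build, annotation and strand setting were not given in the sources used here, so antisense overlaps could not be resolved. The deposited values are raw read counts per Ensembl gene, 1 file per library. Entries that name no gene (no feature 7.43% to 11.5% and ambiguous 2.66% to 2.91% of reads) were left out of library sizes.

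Identifiers were matched to GENCODE 29 (58275 of 58395). Genes were filtered (filterByExpr), scaled by TMM and fitted over all 9 libraries with 3 groups in edgeR 4.0.16 (R 4.3.3, quasi-likelihood F-test, 6 residual degrees of freedom), with Benjamini-Hochberg adjustment over 16761 genes and a threshold of 0.05. glmTreat tested against 1.8-fold. The SE of a fold change is an approximation, its absolute log2 value over the square root of the F statistic. Groups with at most 3 counts in every library were compared by ratios of summed counts with 95% exact binomial intervals (SciPy 1.17.1), which cover counting error only, as PCR copies cannot be told from molecules. DESeq2 1.42.0, other scalings and filters, a replicate block, fits to 2 groups and leaving out each library were alternatives. The scripts were tested on simulated data. Lists and members were chosen with earlier results of these data known, and the naming rule took, per class, the 3 highest levels in siNC, the 8 largest changes, members called in opposite directions, set complexes and neighbours within 100 kb, and from each partner list the 3 largest mean changes. The numbers of replicates were checked for pairing: same-numbered libraries correlated at -0.0919 to 0.118 in their deviations from group means and others at -0.209 to 0.164. No sign of pairing was seen. Deviations from a mean of 3 libraries depend on each other, so this cannot exclude a shared culture or day. The values of 1 gene are not reported here. Promoters came from RefSeq (GRCh38.p14), with coordinates of genes from GENCODE 29 on GRCh38.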

Additional observations from a re-analysis of the deposited data

Results flagged for a closer look

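Calls in opposite directions with siZIP7_1 and siZIP7_2 were found for 29 of the 54 reported genes, against 18.7% of all genes tested. They come from edgeR's quasi-likelihood test, Benjamini-Hochberg adjusted, and share the siNC libraries. Without the 5 genes that reached 10 counts in no siNC library the number was 28 of 49, and by glmTreat against 1.8-fold it was 7 of 54 (1.53% of all genes). Some of these opposite calls are unstable. Those of COL4A1, COL6A1, ITGA11 and ITGAV with siZIP7_2, and of LAMA4 and ITGB7 with siZIP7_1, were each lost in some alternative other than the 1.8-fold test. The siZIP7_2 values of COL4A6, COL6A1 and ITGAV overlapped siNC. The direct comparison of the siRNAs passed for each of the 29. Opposite calls made that nearly certain in advance, so it adds no support. The siNC libraries also enter its filter, scaling and estimate of spread. The values below are log2 fold changes with siZIP7_2 minus those with siZIP7_1. They are given for 28 genes, and the first of these were higher with siZIP7_2. Among collagens the difference was 6.59 for COL15A1, 4.91 for COL7A1, 4.12 for COL6A3, 3.62 for COL16A1, 3.27 for COL27A1, 2.44 for COL11A2, 2.28 for COL17A1, 2.07 for COL6A1, 1.97 for COL4A6 and 1.66 for COL6A2. For laminins it was 1.46 for LAMB3 and 0.65 for LAMC1, and for integrins 5.95 for ITGA10, 4.22 for ITGA11, 3.81 for ITGB7, 2.75 for ITGA2, 2.29 for ITGB3, 2.22 for ITGA1 and 0.54 for ITGAV. The fitted values of COL15A1, ITGA11 and ITGB7 rest on 6, 5 and 4 summed counts with siZIP7_1.

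In 9 genes the level was lower with siZIP7_2. The difference was -2.83 for COL8A1, -2.41 for LAMB4, -2.04 for ITGB4, -1.97 for ITGB8, -1.87 for COL12A1, -1.06 for LAMA4, -0.79 for COL9A2, -0.55 for COL4A1 and -0.38 for ITGB5. Groups of 3 libraries are too small for a check of single outlying samples.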

How the results depend on the processing

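Of the 162 fold changes of single genes, 21 (in 20 genes) changed their call or sign in some alternative other than the 1.8-fold test: 9 lost a call, 7 gained one and 5 not past the threshold changed sign. The numbers of members called stayed within 1.5 times of the reported ones in all alternatives but glmTreat against 1.8-fold, which left 25 of 45 members with siZIP7_1 and 22 of 50 with siZIP7_2, and 2836, 4134 and 4725 genes in all with siZIP7_1, with siZIP7_2 and between the siRNAs, by the construction of that test. Leaving out 1 library gave 43 to 46 members with siZIP7_1, 48 to 50 with siZIP7_2 and 51 to 52 between the siRNAs, beside 11291 to 11984, 12633 to 13360 and 12840 to 13458 genes in all. With the replicate number as a block the counts were 45, 50 and 51 members and 11927, 13080 and 13242 genes, and no member changed its call. Upper-quartile normalization moved the median log2 fold change of all genes with siZIP7_2 to 0.10, and 36 members rose and 13 fell there, beside 43.3% and 34.6% of all genes.

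The changes of sign were in values not past the threshold, and the cause was not tested. Leaving out 1 library gave -0.0282 to 0.216 for LAMA1 with siZIP7_1, -0.95 to 0.71 for ITGB6 with siZIP7_1, -0.12 to 0.195 for COL4A4 with siZIP7_2, -0.0859 to 0.0137 for LAMB2 between the siRNAs and -0.0347 to 0.191 for LAMA2 between the siRNAs. LAMB2 between the siRNAs was also at 0.0150 with DESeq2's size factors, 0.0599 with upper-quartile normalization, 0.0309 with 10 counts in every library and 0.00078 with only the groups compared. Called values that 1 library moved by over 1.5 times were those of sparse genes: without siNC replicate 3, COL11A1 stood at 4.62 and 3.94 with siZIP7_1 and siZIP7_2 (2.16 with siZIP7_2 without siNC replicate 1), ITGA11 at -4.10 with siZIP7_1 without siZIP7_1 replicate 1, and ITGB7 at -3.19 and -1.37 without siZIP7_1 replicates 2 and 3. ITGB6 stood at 4.42 with siZIP7_2 without siNC replicate 2. Between the siRNAs, ITGA11 was at 4.92 without siZIP7_1 replicate 1, ITGB6 at 4.50 without siZIP7_1 replicate 2, and ITGB7 at 5.02 and 3.20 without siZIP7_1 replicates 2 and 3. The lost call of COL13A1 between the siRNAs had adjusted p = 0.0785 with DESeq2's size factors and 0.342 with upper-quartile normalization. Depth limits the genes under about 1 CPM, and 46 of the 54 were above that on average.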
